A study of Mus musculus with 112 samples.

Results

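Apolipoprotein D, encoded by Apod, is described here in the gastrocnemius, a calf muscle, of mice that carried a cast on a single hindlimb. It is 1 gene of the 32544 gene symbols with a read count in the tables of both sexes, and 1 of the 11886 with enough reads to be tested. The protein is a small secreted lipocalin, a barrel that holds greasy molecules such as arachidonic acid, and it is named an apolipoprotein because it was found in plasma lipoprotein particles. It is made by fibroblasts and by glial cells of peripheral nerve, is known in rats to accumulate in injured nerve, and is reported to limit the spread of lipid peroxidation. Apod was chosen by its measured difference between the limbs in these same libraries, so that difference, its size in each block of animal numbers, and the correlation of its change with fibroblast and Schwann cell genes are given as descriptions without a test. The control limb supplies one side of that difference, so levels of Apod in control limbs are described in the same way.

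The mice were Diversity Outbred animals aged 16 weeks, an outbred stock in which each mouse has its own genotype, and all of them carried a cast for 3 weeks. The 112 libraries of total RNA, depleted of ribosomal RNA and made with a stranded kit, form 4 groups of 28: immobilized limbs of males, immobilized limbs of females, control limbs of males and control limbs of females. The right limb was immobilized and the left was the control in every animal, so side and cast cannot be told apart, and each control limb came from an animal that carried a cast. The animal numbers fall into 3 blocks, 1 to 20, 21 to 40 and 41 to 59, each with both sexes; the labels do not say what the blocks stand for.

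Total counts per library ran from 1716485 to 9995936 with a median of 4395118. In 10 libraries from 10 animals (3 males and 7 females) Acta1, the actin of muscle fibres, lay under 50% of its median over all libraries; 5 were immobilized limbs and 5 control limbs, and 6 of the 18 animals of block 41 to 59 had such a library. Markers of T, B and NK cells summed to a median of 2.16 CPM (reads of a gene after scaling each library to the same size) in immobilized limbs and 1.42 CPM in control limbs, but reached 1426 CPM in an immobilized limb and 1617 CPM in a control limb. The pairing of limbs was checked on the 150 genes most alike within the pairs of the other animals. For 54 of 56 animals the control limb was closest to its labelled partner. For males 15 and 16 it was closest to the partner of the other one, with a Pearson r of 0.97 in both, against 0.16 with the labelled partner. They are kept as labelled. Some of the values that rest on the pairing are also given without them, and the others include them.

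The 250 bases before the RefSeq start of Apod (GRCm38.p6, chr16:31314809-31315058, minus strand) are shown to place the gene described. The capitals mark the single E-box, CANNTG, a motif that reads the same on both strands and is bound by factors of muscle and of many other cells.
Apod promoter: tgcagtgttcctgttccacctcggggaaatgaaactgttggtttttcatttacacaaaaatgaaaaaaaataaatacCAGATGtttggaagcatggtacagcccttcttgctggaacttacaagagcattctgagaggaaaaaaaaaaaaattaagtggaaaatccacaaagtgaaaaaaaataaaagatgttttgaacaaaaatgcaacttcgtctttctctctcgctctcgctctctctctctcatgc
The E-box begins 173 bases before the start. Of 32851 RefSeq promoters of the same length, 66.2% held at least 1 CANNTG and 14.4% held CAGATG on either strand, so the match is a common one. No other gene of the mouse GENCODE annotation overlapped Apod.

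Apod was higher in the immobilized limb of most animals. In males its level had a lowest value of 55.3 CPM, a median of 114 CPM and a highest of 468 CPM in immobilized limbs, against 8.00, 55.6 and 114 CPM in control limbs. In females the same values were 33.1, 124 and 520 CPM in immobilized limbs and 41.8, 67.9 and 119 CPM in control limbs. The groups overlapped: 29 of 56 immobilized limbs lay above the highest control limb, and 5 of 56 control limbs lay below the lowest immobilized limb. Fewer or more cells of a type and less or more Apod RNA per cell cannot be told apart in whole muscle.

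Means were 137 ± 84.9 CPM in immobilized and 59.7 ± 28.3 CPM in control limbs of males, and 140 ± 103 CPM in immobilized and 67.7 ± 17.5 CPM in control limbs of females (SD, n = 28 each). The SD between animals in CPM was larger in immobilized than in control limbs of both sexes, as was the mean. The spread of levels on the log2 scale was not compared. Read counts behind these levels ran from 95 to 2565 in immobilized limbs and from 65 to 782 in control limbs, so counting error is small beside the spread between mice.

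**Figure D1:**
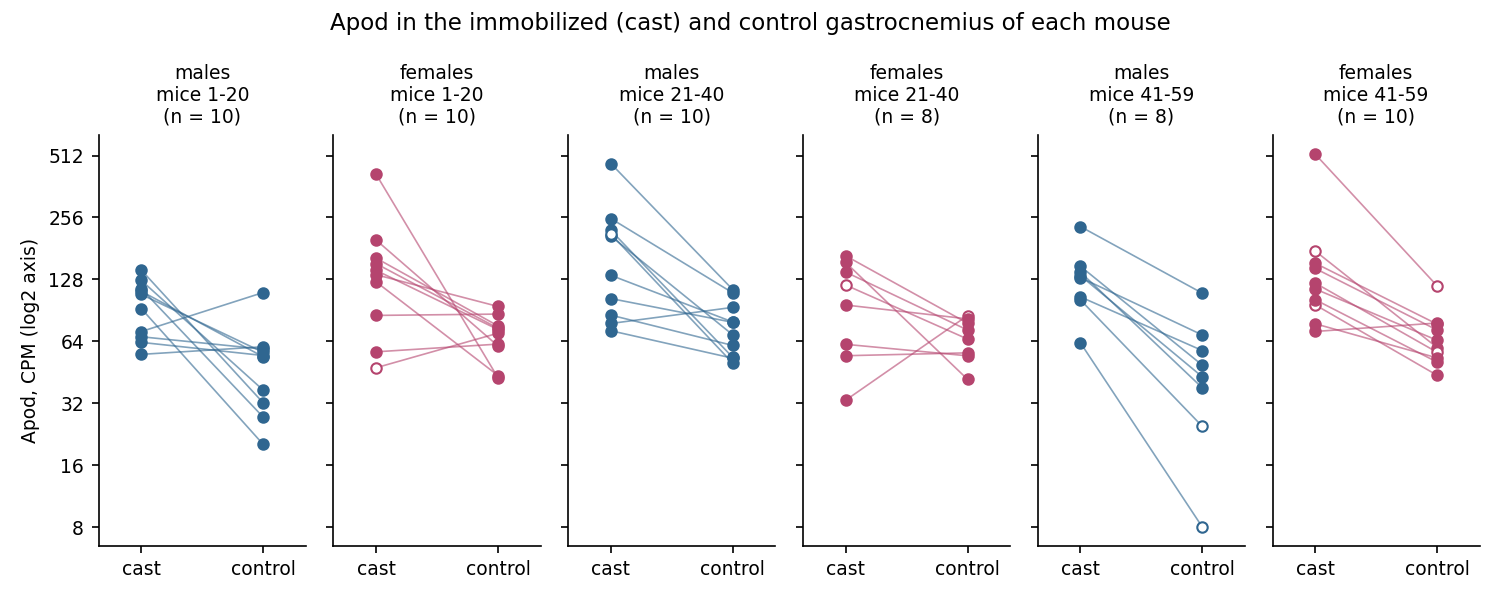
Apod level in CPM on a log2 axis, with a line for each mouse from its immobilized (cast) limb to its control limb, in panels by sex and number block; open circles are libraries with low Acta1. Of 56 mice, 47 were higher in the immobilized limb.

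Within animals, the change is the log2 CPM of the immobilized limb minus that of the control limb. It was above 0 in 25 of 28 males and 22 of 28 females. Apod was at least 2-fold higher in the immobilized limb of 16 males and 12 females, and at least 2-fold lower in 0 males and 1 female. The change averaged 1.19 ± 0.88 in males and 0.83 ± 0.90 in females (SD, n = 28 each). Without the 10 animals that had a low Acta1 library the averages were 1.05 in 25 males and 0.88 in 21 females, and 39 of these 46 animals were higher in the immobilized limb. Without males 15 and 16 the average in males was 1.22, with 24 of 26 higher, and over both sexes 46 of 54 were higher.

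The largest difference was in female 8, with 415 CPM in the immobilized limb and 42.5 CPM in the control limb, a change of 3.27. The next was male 52, at 2.91, with 63.0 CPM in the immobilized limb and 8.00 CPM in the control limb. That control limb held 65 Apod reads and only 3.45 CPM of Acta1, so by this defining marker the library stood apart from muscle. In 9 mice Apod was lower in the immobilized limb, by less than 0.3 in 6 of them. The lowest was female 26, with 33.1 CPM in the immobilized and 85.4 CPM in the control limb, a change of -1.36; its control limb was a low Acta1 library. Male 15, an animal whose labelled limbs did not match, followed at -0.63, and female 2, whose immobilized limb was a low Acta1 library, at -0.55.

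Each block of animal numbers showed the difference. In block 1 to 20 the mean change was 0.96 ± 1.04 (SD, n = 20) and 15 of 20 mice were higher in the immobilized limb; without males 15 and 16 it was 0.98 ± 0.98 (SD, n = 18), with 14 of 18 higher. In block 21 to 40 it was 0.81 ± 0.92 (SD, n = 18), with 15 of 18 higher. In block 41 to 59 it was 1.28 ± 0.68 (SD, n = 18), with 17 of 18 higher. The block means differed by less than the SD between their mice, which is not the error of a mean. The SEs of the 3 means were 0.23, 0.22 and 0.16, and a difference between blocks was not tested. Without the low Acta1 animals, which are concentrated in the last block, the 3 means were 1.04, 0.86 and 1.01 in 19, 15 and 12 mice. The higher mean of block 41 to 59 was then not seen over both sexes together. The sexes differed in this: the 3 means were 0.98, 0.96 and 1.32 in males and 1.10, 0.71 and 0.70 in females.

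By sex, the mean change in males was 0.98 ± 1.03 in block 1 to 20 (n = 10), 1.07 ± 0.83 in block 21 to 40 (n = 10) and 1.61 ± 0.68 in block 41 to 59 (n = 8), and in females it was 0.94 ± 1.10 (n = 10), 0.47 ± 0.96 (n = 8) and 1.01 ± 0.59 (n = 10) in the same blocks (SD). Without males 15 and 16 the mean of males in block 1 to 20 was 1.03 ± 0.89 (n = 8). All 8 males of block 41 to 59 were higher in the immobilized limb, by 0.86 to 2.91. The 6 of them without a low Acta1 library averaged 1.32 ± 0.42. Females of block 21 to 40 had the smallest mean, with 6 of 8 higher, and without the 2 low Acta1 animals it was 0.71 ± 0.73 (n = 6).

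**Figure D2:**
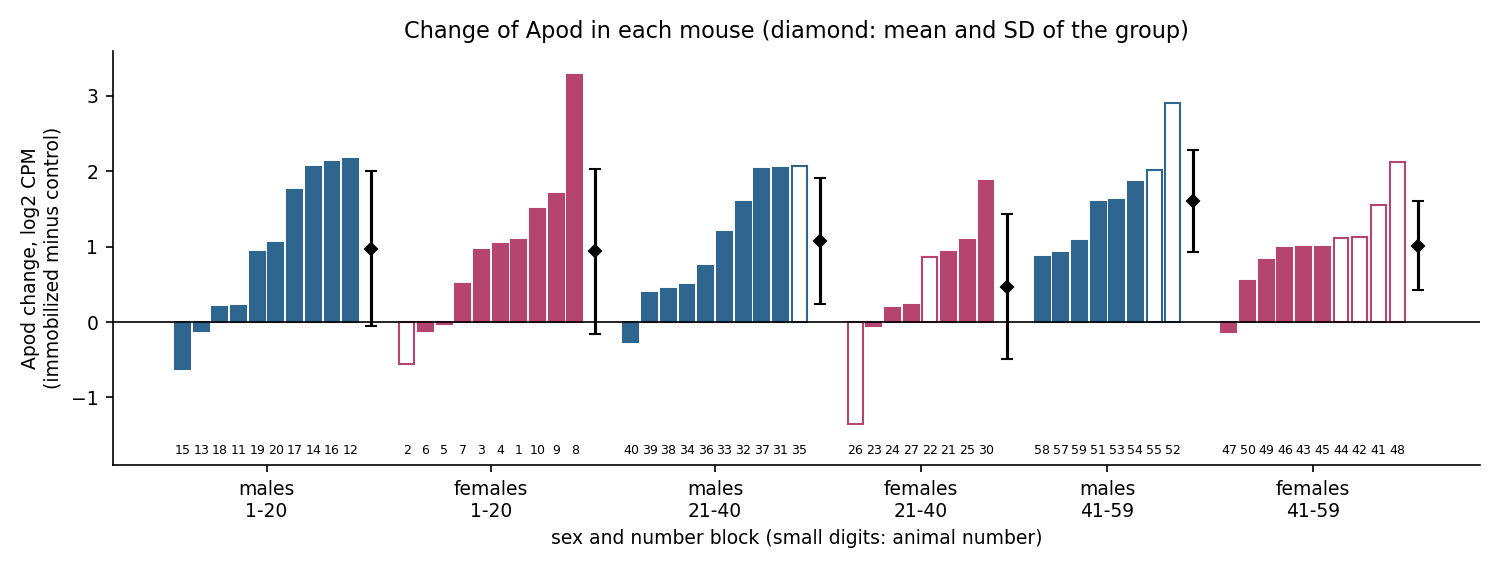
Change of Apod in each mouse, immobilized minus control in log2 CPM, sorted within sex and number block; open bars are animals with a low Acta1 library and diamonds with bars are the mean and SD of each group. All 8 males of block 41 to 59 lie above 0, from 0.86 to 2.91.

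The 12 combinations of limb, sex and block could be ordered by median level. The 6 immobilized groups came first, from 171 CPM in males of block 21 to 40 to 100.2 CPM in males of block 1 to 20. The 6 control groups followed, from 74.0 CPM in males of block 21 to 40 to 46.0 CPM in males of block 41 to 59. Between neighbours in this order the gap in medians exceeded the larger of their SDs in 0 of 11 cases. Neighbours in a sorted order lie close by design, so this count cannot show whether groups differ.

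The model over all genes, with a term for each animal and a cast effect per sex, gave Apod a log2 fold change of 1.20 ± 0.17 in males and 0.84 ± 0.17 in females (SE), which is 2.30-fold and 1.79-fold. The median over all 11886 genes was 0.0032 in males and 0.0059 in females. Only 32 genes in males and 202 in females, Apod included, had a log2 fold change at least as high. The male minus female difference in the effect on Apod was 0.36 ± 0.24 (SE). For the same comparison, the quasi-likelihood test of edgeR, with p adjusted by Benjamini-Hochberg and a threshold of 0.05, called 2.21% of all genes in males, 1.09% higher and 1.12% lower in the immobilized limb, and 4.57% in females, 2.1% higher and 2.47% lower.

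In control limbs Apod was set beside sex and number block. Male control limbs had a fitted log2 fold change of -0.24 ± 0.16 (SE) over female control limbs, and -0.097 ± 0.14 without the low Acta1 libraries. Relative to block 1 to 20, control limbs differed by 0.32 ± 0.19 in block 21 to 40 and by -0.0029 ± 0.19 in block 41 to 59 (log2, SE). Each of these differences was under 2 SE. The level in the immobilized limb had a weak relation to the level in the control limb of the same animal, with r = 0.22 and rho = 0.13 over 56 mice, and r = 0.14 without the 2 farthest animals. Without males 15 and 16 r was 0.26 and rho 0.19 over 54 mice. Over all genes the median r between limbs was 0.092.

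Cells that could supply Apod RNA were followed by lists of marker genes. The lists and Apod itself were picked with earlier results of these data known, so their counts describe these libraries. Of 24 genes of fibroblasts and fibro-adipogenic progenitors, all tested, 1 rose and 0 fell in the immobilized limb of males, and 1 rose and 0 fell in that of females. Lum, a collagen-binding proteoglycan, rose in males by 0.65 ± 0.17 (log2, SE, edgeR adjusted p = 0.033) to 52.4 CPM in immobilized limbs, against 28.8 CPM in control limbs. Col3a1, the chain of type III collagen, rose in females by 1.06 ± 0.30 (edgeR adjusted p = 0.035) to 559 CPM, against 216 CPM. The list's median log2 fold change was 0.26 in males and 0.33 in females. Apod's value lay above that of 24 of the 24 genes in males and 23 of 24 in females. Within mice, its change exceeded the mean change of the list in 48 of 56, by 0.72 ± 0.74 (log2, SD).

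Schwann cells wrap the axons of motor and sensory nerve fibres in muscle and make the proteins of peripheral myelin. Of 24 Schwann cell and myelin genes 19 were tested, and 0 were called in either sex. The median was 0.49 in males and 0.38 in females. The nearest to the threshold was Pmp22, a protein of compact myelin, with 0.51 ± 0.15 in males (edgeR adjusted p = 0.0504) and 0.28 ± 0.15 in females (adjusted p = 0.23). Apod's log2 fold change lay above that of all 19 tested genes in both sexes, and its change exceeded the list mean in 45 of 56 mice, by 0.68 ± 0.82.

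The low Acta1 animals bore on these counts. Without them edgeR called 9.13% of 11731 genes in males and 17.2% in females. Of the fibroblast genes 2 then rose in males (Lum and Col3a1) and 3 in females (Mgp, Col3a1 and Htra3). Of the Schwann genes 2 rose in males (Pmp22 and Mal) and 4 in females (Mbp, Prx and Cnp among them), and 0 fell. The background in that fit was 4.23% of genes higher and 4.9% lower in males, and 8.1% higher and 9.1% lower in females; whether the lists exceed it was not tested. Apod's log2 fold change was 1.06 in males and 0.88 in females in that fit.

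**Figure D3:**
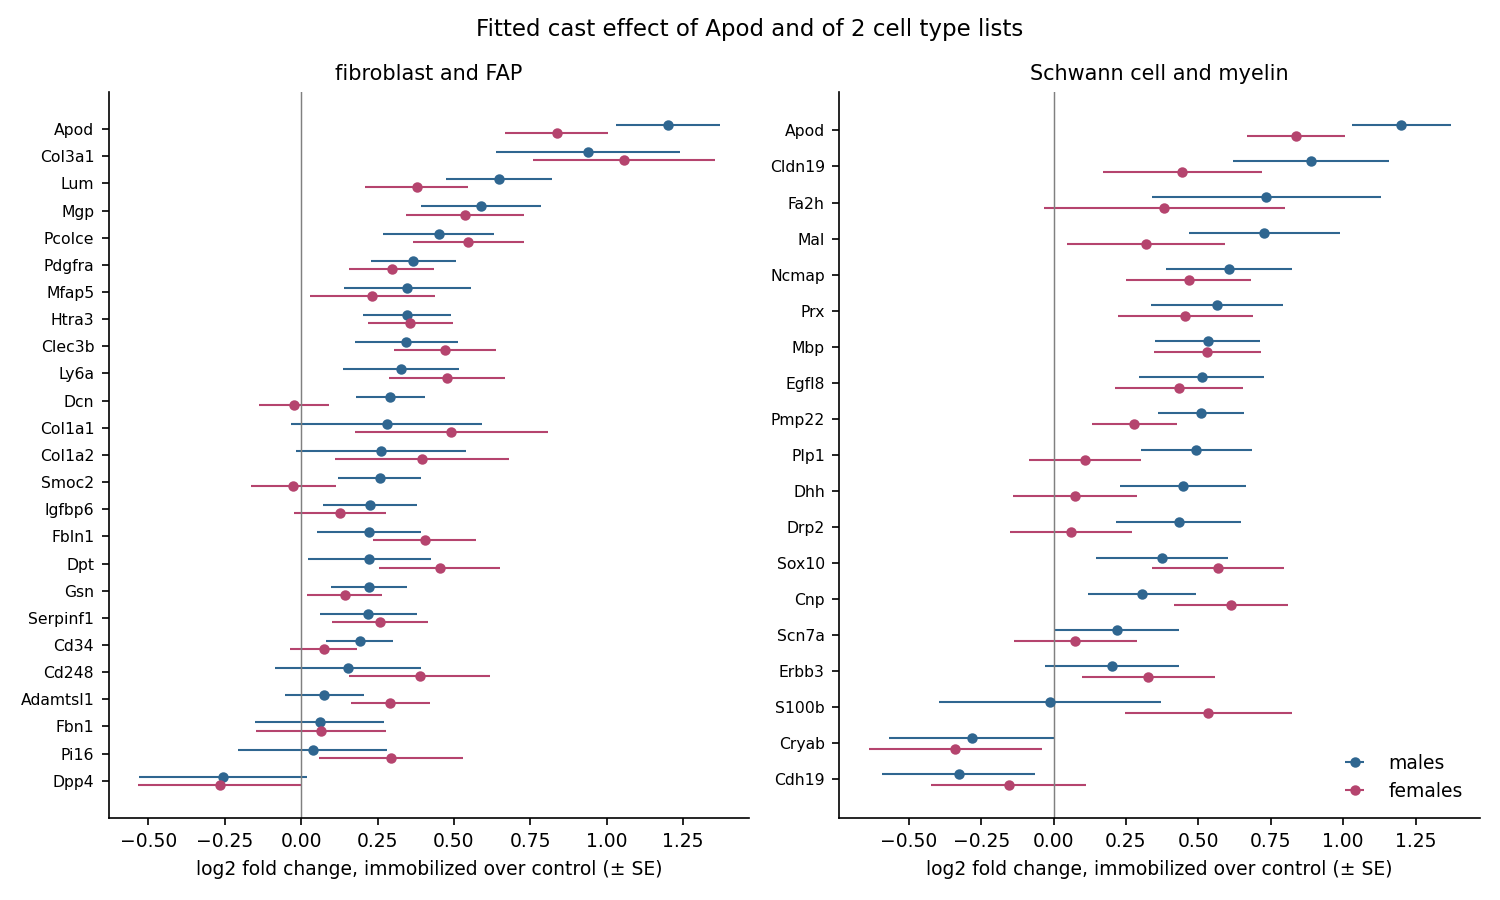
Log2 fold change of the immobilized over the control limb with its SE for Apod and each tested gene of the fibroblast list (left) and 18 of 19 tested genes of the Schwann cell list (right), in males and females. Apod, at 1.20 in males and 0.84 in females, lies above all of them except Col3a1 in females.

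Other cell types of muscle were followed in the same way. Of 14 macrophage genes 2 rose in males and 7 in females, and 0 fell, with medians of 0.70 in males and 0.94 in females. Gpnmb, a glycoprotein of macrophages that take up lipid and debris, rose by 1.47 ± 0.24 in males and by 1.33 ± 0.24 in females (edgeR adjusted p = 0.00018 and 0.0013). Without the low Acta1 animals 10 of the 14 rose in males and 11 in females, and 0 fell. Apod's change exceeded the macrophage mean in 32 of 56 mice. Kdr, a receptor for vascular endothelial growth factor, was the only one of 12 endothelial genes called, and it fell in males by 0.54 in log2 (adjusted p = 0.031 by edgeR). In the fit that left out the low Acta1 animals Kdr and Ptprb, a phosphatase of vessel walls, fell in both sexes and Cldn5, a tight junction protein, rose in both, while in females Vwf and Egfl7 rose and Flt1 fell.

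Among the other cell types, 0 were called of 3 repair Schwann cell genes, 7 genes of perineurium and nerve fibroblasts, 11 of pericytes and smooth muscle, 10 of tendon, 11 of adipocytes and 16 of muscle fibres. The low Acta1 animals bore on most of these counts too. Without them Ngfr, the low-affinity neurotrophin receptor of repair Schwann cells, rose in females by 0.99 (edgeR adjusted p = 0.019). Itgb4, an integrin of perineurium, rose in females by 0.64 (edgeR adjusted p = 0.030), and Wif1, an inhibitor of Wnt signals, fell in males by 1.53 (adjusted p = 0.0071). Acta2 and Tagln, contractile genes of smooth muscle, rose and Rgs5, a pericyte marker, fell in females, and Plin4, a protein of lipid droplets, fell in males. Tendon and muscle fibres still had 0 called genes in that fit. Of 11 T, B and NK cell markers 0 passed the filter on low counts, and each had no reads in 39 to 90 of the 112 libraries.

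Genes related to the protein's function were counted next. Of 13 apolipoproteins and lipid carriers tested, 0 rose and 1 fell in males, and 2 rose and 1 fell in females. Apoe, the apolipoprotein of macrophages and many other cells, rose in females by 1.34 ± 0.37 (edgeR adjusted p = 0.032) and had 0.92 ± 0.35 in males (adjusted p = 0.15). Pltp, which moves phospholipids between lipoproteins, rose in females by 0.86 ± 0.22 (edgeR adjusted p = 0.023) and had 0.38 ± 0.22 in males. Lpl, the lipase that frees fatty acids from plasma triglyceride, fell by 0.87 in males and by 0.75 in females (edgeR adjusted p = 0.025 and 0.038), to 478 CPM in immobilized limbs against 948 CPM in control limbs of males. Among 6 lipocalins and fatty acid binding proteins 0 were called in males, and Fabp3, the fatty acid carrier of muscle fibres, fell in females by 1.16 (edgeR adjusted p = 0.047). When the low Acta1 animals were left out, 2 of 12 lipid carriers rose and 1 fell in males, and 6 rose and 1 fell in females. Apoe then passed in males too, at 1.02 (edgeR adjusted p = 0.0078), as did Abca1, which exports cholesterol, at 0.68 (adjusted p = 0.00089). In the same fit Fabp3 fell in both sexes.

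The reported receptor partners of the protein did not change past the threshold. Bsg, basigin, had log2 fold changes of 0.028 ± 0.11 in males and 0.0055 ± 0.11 in females, and Lepr, the leptin receptor, -0.27 ± 0.25 in males and -0.45 ± 0.24 in females. Arachidonic acid is a ligand of the protein. Of 12 genes that release or convert it, Pla2g16, a phospholipase, fell in males (by 0.51) and in females (by 0.44), and Pla2g15, a phospholipase of lysosomes, rose in females by 0.73 (edgeR adjusted p = 0.025, 0.037 and 0.029). In the fit without the low Acta1 animals 2 of 11 tested genes of this list rose and 1 fell in each sex. Pla2g15 rose there in males as well, by 0.50 (edgeR adjusted p = 0.049). Hpgd rose in males by 1.10 (edgeR adjusted p = 0.019) and Alox5ap in females by 0.83 (edgeR adjusted p = 0.047).

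Of 25 genes of defence against oxidants and lipid peroxides 0 rose and 1 fell in males, and 2 rose and 2 fell in females. Cat, the catalase of peroxisomes, fell by 0.60 in males and by 0.48 in females. Gpx1 and Gpx3, glutathione peroxidases that reduce peroxides, rose in females by 0.67 and 0.45, and Gclm, a subunit of the enzyme that makes the glutathione precursor, fell in females by 0.28. The call of Gclm was lost without the low Acta1 animals, at -0.18 in females (edgeR adjusted p = 0.13). The list of 25 then had 3 genes that rose and 2 that fell in males, and 3 that rose and 3 that fell in females. Over all genes that fit called 4.23% higher and 4.9% lower in males, and 8.1% higher and 9.1% lower in females. Whether the list exceeds these shares was not tested. Of 10 stress and growth arrest genes, a state in which cultured fibroblasts are reported to make Apod, Gas6 rose by 0.44 in males and 0.34 in females (edgeR adjusted p = 0.0017 and 0.017). Cdkn1a, which encodes the cell cycle inhibitor p21, rose in males by 0.50 (edgeR adjusted p = 0.043) and had 0.37 in females (adjusted p = 0.10). With the low Acta1 animals left out, 4 of the 10 rose in males and 3 in females, Gas6 and Cdkn1a among them in both sexes, and 0 fell.

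Across the 56 control limbs, Apod followed the fibroblast genes. Its log2 CPM correlated with the mean of the fibroblast list with rho = 0.53 and r = 0.44. These correlations are across limbs that share their library depth and scaling between Apod and the list, and no test is given. Leaving out the 2 limbs farthest from the median gave r = 0.34. The value of rho was 0.48 in males and 0.47 in females, and 0.66, 0.37 and 0.73 in blocks 1 to 20, 21 to 40 and 41 to 59. Without the low Acta1 animals it was 0.61 in 46 limbs.

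For the Schwann list rho was 0.33 and r was 0.28, with r = 0.28 also without the 2 farthest limbs. Within blocks rho was 0.38, 0.27 and 0.52. In the 46 animals with no low Acta1 library rho was 0.28. The fibroblast and Schwann means themselves had r = -0.019 with each other in control limbs.

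Other lists also went with Apod in control limbs. The rho with Apod was 0.43 for macrophages, with r = 0.25. It was 0.37 for perineurium and nerve fibroblasts, with r = 0.47, and r = 0.36 without the 2 farthest limbs. For tendon rho was 0.36 and r was 0.51, with rho = 0.59 in males and 0.098 in females, a difference that was not tested. Repair Schwann cells, endothelium, pericytes, adipocytes and muscle fibres had rho between -0.13 and 0.15. For muscle fibres r was 0.49 but -0.0039 without the control limbs of animals 48 and 52, both with low Acta1, so the Pearson value rests on those 2 limbs. In the 46 control limbs of animals with no low Acta1 library rho was 0.59 for macrophages, 0.46 for tendon and 0.37 for perineurium and nerve fibroblasts, and the other 5 lists lay between -0.25 and 0.26.

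Single genes were compared in the same control limbs. All 24 fibroblast genes had a positive rho with Apod in control limbs, with a median of 0.38. The highest were Igfbp6, which binds insulin-like growth factor II, at 0.65, Cd34, a surface marker of the progenitors, at 0.56, Mgp, an inhibitor of calcification, at 0.56, Serpinf1, a secreted serpin, at 0.53, and Pcolce, which speeds procollagen processing, at 0.49. The lowest were Adamtsl1, Smoc2 and Fbn1 at 0.0040, 0.011 and 0.15. All 19 Schwann genes were positive too, with a median of 0.24, and Pmp22, Mbp and Cnp had 0.45, 0.35 and 0.32. Over all genes the median rho with Apod was 0.0074 and the middle 50% of genes lay between -0.099 and 0.12.

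The changes between limbs followed both lists. Each point here is a mouse, Apod and the lists were read in the same libraries and share their depth and scaling, and no test is given. The change of Apod correlated with that of the fibroblast list with r = 0.60 and rho = 0.56 over 56 mice, and r = 0.52 without the 2 mice farthest from the median. It correlated with that of the Schwann list with r = 0.48 and rho = 0.49, and r = 0.46 without the 2 farthest. Without the low Acta1 animals rho was 0.56 for fibroblasts and 0.51 for Schwann cells over 46 mice, and without males 15 and 16 it was 0.54 and 0.46. For fibroblasts rho was 0.63 in males and 0.53 in females, and for Schwann cells 0.52 in males and 0.38 in females.

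The number blocks were not alike in these correlations. For fibroblasts rho was 0.63 in block 1 to 20, 0.58 in block 21 to 40 and 0.43 in block 41 to 59. For Schwann cells it was 0.69, 0.47 and 0.14 in the same order. Whether the blocks differed was not tested. Without the low Acta1 animals the fibroblast values were 0.70, 0.41 and 0.24 and the Schwann values 0.65, 0.49 and 0.25, over 19, 15 and 12 mice. Without males 15 and 16 the values in block 1 to 20 were 0.60 for fibroblasts and 0.66 for Schwann cells over 18 mice.

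The mean changes of the fibroblast and Schwann lists correlated with each other with r = 0.22. The partial r of Apod with fibroblasts given Schwann cells was 0.57, and with Schwann cells given fibroblasts 0.44. A linear model of the Apod change on both lists had an R squared of 0.48, against 0.36 with fibroblasts alone and 0.23 with Schwann cells alone. Within blocks the R squared of both was 0.48, 0.71 and 0.13, and in block 1 to 20 the lists themselves correlated with r = 0.63. Without males 15 and 16 the R squared of both was 0.46 over all mice and 0.44 in block 1 to 20, where the lists then correlated with r = 0.62.

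**Figure D4:**
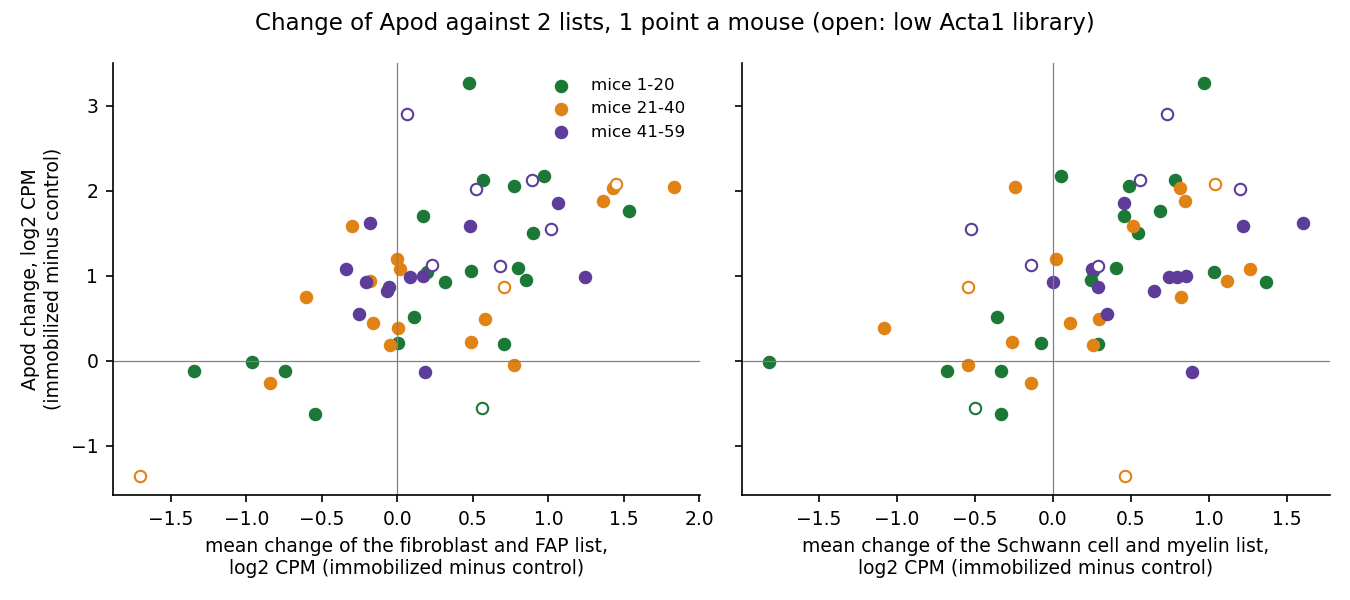
Change of Apod against the mean change of the fibroblast list (left) and of the Schwann list (right), in log2 CPM of the immobilized minus the control limb, with a point for each of 56 mice coloured by number block; open points are animals with a low Acta1 library. The Pearson r is 0.60 on the left and 0.48 on the right.

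Among single genes, 23 of 24 fibroblast genes had a change with positive rho, with a median of 0.47, and the exception was Adamtsl1 at -0.020. Cd34 at 0.60, Mgp at 0.58, Serpinf1 at 0.57, Pi16, a marker of progenitors around vessels, at 0.57 and Pcolce at 0.57 were highest. All 19 Schwann genes were positive, with a median of 0.30. Pmp22 at 0.59, Ncmap, a membrane protein of noncompact myelin, at 0.47, Cldn19, a claudin of myelin, at 0.42 and Mbp, myelin basic protein, at 0.41 were among the highest. Over all genes the median was 0.00034, and the middle 50% of genes lay between -0.15 and 0.15. The signs did not hold in every block. In block 41 to 59 rho was -0.44 for Cnp, -0.24 for Scn7a and -0.23 for Cdh19, against 0.61 for Ncmap and 0.53 for Cldn19. Of the fibroblast genes Gsn had -0.25 and Mgp 0.56 in that block. Without the low Acta1 animals Cryab, of the Schwann list, had -0.058.

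Macrophage genes changed with Apod too, with r = 0.48 and rho = 0.43, and rho = 0.65 without the low Acta1 animals. The blocks had a rho of 0.58 in block 1 to 20, 0.72 in block 21 to 40 and -0.12 in block 41 to 59, and 0.55 in block 1 to 20 without males 15 and 16. Perineurium and nerve fibroblasts had rho = 0.24, tendon 0.27, adipocytes 0.15, repair Schwann cells 0.076, pericytes 0.050, endothelium 0.047 and muscle fibres -0.15. In blocks 1 to 20, 21 to 40 and 41 to 59 perineurium and nerve fibroblasts had 0.46, 0.45 and -0.39. In the same order tendon had 0.40, -0.13 and 0.49, adipocytes 0.25, 0.47 and -0.33, and repair Schwann cells 0.19, 0.41 and -0.23. Pericytes had 0.22, 0.17 and -0.56, endothelium 0.36, 0.10 and -0.56, and muscle fibres -0.22, -0.53 and 0.17. Over the 46 mice with no low Acta1 library rho was 0.21 for perineurium and nerve fibroblasts, 0.14 for tendon, 0.34 for adipocytes, 0.070 for repair Schwann cells, 0.18 for pericytes, 0.21 for endothelium and -0.35 for muscle fibres. The change in log2 total count had r = -0.20 with that of Apod, and the change in mitochondrial percentage -0.24. The change in log2 Acta1 had 0.18 (rho = -0.12), that in summed T, B and NK cell markers 0.038 and that in summed adipocyte markers -0.00091. Over the 46 mice with no low Acta1 library these r values were, in the same order, -0.11, -0.20, -0.29 (rho = -0.29), 0.23 and 0.37. The part of these in the relations above was not tested. In the immobilized limbs alone Apod had rho = 0.59 with macrophages, 0.53 with fibroblasts and 0.42 with Schwann cells.

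**Figure D5:**
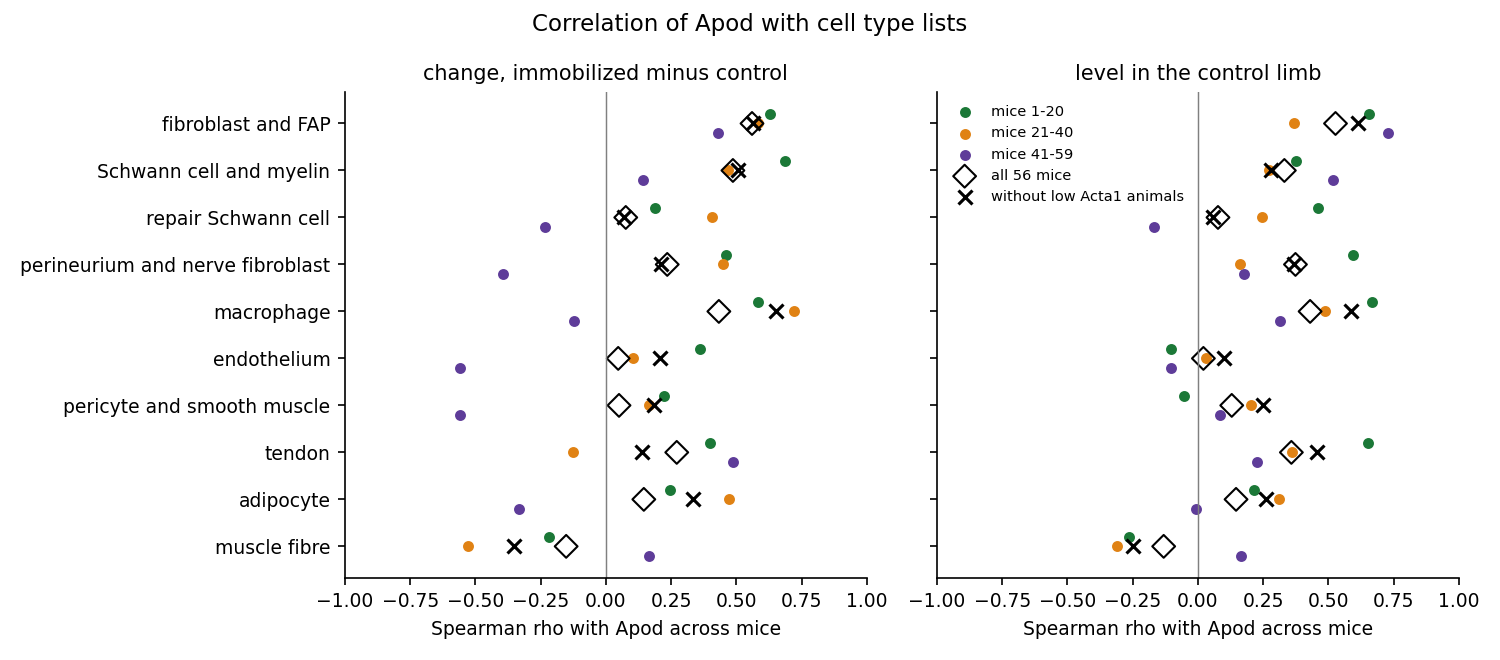
Spearman rho of Apod with the mean of each cell type list, for the change between limbs (left) and the level in control limbs (right), over all 56 mice (diamonds), without the low Acta1 animals (crosses) and within number blocks (dots). The fibroblast list has the highest diamond in both panels, at 0.56 and 0.53. Among the crosses on the left macrophages are highest, at 0.65 against 0.56 for fibroblasts. On the right fibroblasts are at 0.61 and macrophages at 0.59.

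The genes most like Apod were ranked by rho among the 11262 genes whose average log2 CPM was 1 or more, without predicted genes. In control limbs the 10 highest were Nbl1, Igfbp6, Cd34, Lbp, Mgp, Wisp2, Tbrg1, Gpnmb, Serpinf1 and Timp2, from 0.65 for Nbl1, a secreted antagonist of bone morphogenetic proteins, to 0.52 for Timp2, an inhibitor of matrix metalloproteinases. In the changes they were Spp1, Il11ra1, Lbp, Nbl1, Mmp2, Psmb4, Cd34, Pmp22, Psmb1 and S100a6. Spp1, the secreted phosphoprotein osteopontin, had 0.70, Il11ra1, the receptor of interleukin 11, 0.69, Lbp, which binds bacterial lipopolysaccharide, 0.68 and S100a6, a calcium-binding protein, 0.58. Il11ra1 has near-identical copies in the mouse genome, so its counts are uncertain. The 2 groups of 10 share 3 genes, Cd34, Lbp and Nbl1.

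Several of these genes also changed with the cast. Lbp rose by 0.87 ± 0.19 in males and 0.77 ± 0.19 in females (edgeR adjusted p = 0.0097 and 0.021). Mmp2, a gelatinase that cuts basement membrane collagen, rose by 1.00 ± 0.15 in males and 0.67 ± 0.15 in females (edgeR adjusted p = 4.8e-05 and 0.011). Timp2 rose by 0.47 ± 0.13 in males and 0.51 ± 0.13 in females (edgeR adjusted p = 0.045 and 0.024). Nbl1 rose in males by 0.55 ± 0.13 (edgeR adjusted p = 0.019) and had 0.36 ± 0.13 in females (adjusted p = 0.091), where it passed without the low Acta1 animals, at 0.46 (adjusted p = 0.011). Cd34 had 0.19 ± 0.11 in males and 0.074 ± 0.11 in females, neither of which passed, although its change tracked that of Apod from mouse to mouse. Within blocks the rho of S100a6 with Apod was 0.83, 0.85 and -0.16, while that of Spp1 was 0.74, 0.62 and 0.70.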

How the data were processed

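Total RNA of both gastrocnemius muscles of 56 mice was sequenced. The authors deposited raw read counts per gene symbol, whole numbers in 1 table per sex; the aligner, the counter and the build behind them were not given in the sources used here. Apod, the lists and the blocks were chosen with earlier results of these data known. Animal numbers pair the limbs: deviations from the group mean correlated between limbs of an animal with a median r of 0.36, above 0.1 in 45 of 56. EdgeR 4.0.16 (R 4.3.3) fitted all 112 libraries with TMM scaling, its filter on low counts, an animal term and a cast effect per sex; control limbs were fitted with sex and block. Tests planned for control limbs are not given, since those levels enter the difference by which Apod was chosen. Log2 CPM used a prior count of 2. Reads had no molecular identifiers. Scripts were tested on simulated data. Up to 6 genes per list with the smallest p, the 5 highest and 3 lowest correlations, and the 10 genes most like Apod could be named. Alternatives were other scalings, filters, DESeq2 1.42.0, limma voom 3.58.1, no animal term, each sex alone, other priors, list medians, and left-out animals. Female 8, male 52 and other single animals were named after their values were seen. A Schwann cell gene is not reported here by name.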

Additional observations from a re-analysis of the deposited data

Results flagged for a closer look

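Of 18 sets of values (3 quantities in 6 groups of sex and number block), 1 held a value far from the others of its group. The immobilized limb of female 48, in block 41 to 59, had an Apod level of 9.02 log2 CPM, while the other 9 females of the block had 6.17 to 7.46. Chance marks about 1 in 20 such sets. The control limb of the same animal was a low Acta1 library with 119 CPM of Apod, the highest of all female control limbs, and its immobilized limb had 520 CPM, the highest of all libraries.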

How the results depend on the processing

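The description of Apod kept its direction under each alternative tried. Its log2 fold change ran from 1.06 to 1.23 in males and from 0.77 to 1.05 in females. Without the animal term (no replicate block) it was 1.20 in males and 1.05 in females, and 1.03, 0.99 and 1.31 in the 3 number blocks. With the pairing kept, the mean changes of the blocks were 0.96, 0.81 and 1.28. Leaving out each mouse in turn gave paired means of 0.83 to 1.04, 0.73 to 0.93 and 1.18 to 1.36. The sex difference in control limbs, described without a test, was negative under each alternative tried. The number of genes called over the whole table was much less stable than Apod. In males it was 263, against 1071 without the low Acta1 animals, 589 without the replicate block, 582 with each sex alone, 576 by DESeq2, 454 by limma voom and 109 with no filter. In females it was 543, against 2017 without the low Acta1 animals, 1145 by DESeq2, 145 with no filter and 84 with each sex alone. The cause was not tested. The correlation of the Apod change with macrophages in block 41 to 59, -0.12 over 18 mice, became 0.20 over the 12 without low Acta1, an alternative added after seeing the data. The filter on low counts left out 5 Schwann genes, with means of 0.81 to 1.59 CPM, and 11 lymphocyte markers, each with no reads in 39 to 90 of 112 libraries.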
